A study of Mus musculus with 8 samples.

Results

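The genes described here are 47 genes of DNA replication and of the E2F transcription factors, chosen by name from the known parts of the replication machinery, and followed across 8 expression arrays of mouse embryonic fibroblasts (MEFs). The choice was made with earlier results of these data known. The genes were measured with 1 probe set each, the brightest one that the array annotation gives to that gene alone, and 46 of the 47 have such a probe set among the 18193 genes tested. Chaf1a, a subunit of the chromatin assembly factor, was not analysed here. Every array holds RNA of C57BL/6 MEFs at passage 13 that were starved for 5 hours. The control groups are wild type, labelled WT- without growth hormone (GH) and WT+GH after 2 hours with 1 ug/ml of it. The other 2 groups, KO- and KO+GH, are Stat5a/b-null MEFs, which lack the transcription factors Stat5a and Stat5b, treated in the same 2 ways. Each group has 2 arrays, numbered 2 and 3 and called biological replicates. The labels name no number of embryos or cultures behind a genotype, so the p-values measure only the spread between these arrays.

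The E2F factors switch on the genes that a cell needs to copy its DNA. In resting cells they are held by the retinoblastoma family of proteins, and cyclin-dependent kinases release them late in G1. The products then act in order: the origin recognition complex, Cdc6 and Cdt1 load the Mcm helicase on origins, Cdc45 and the GINS complex start it, and polymerases, a sliding clamp and its loader copy the strands while other enzymes supply nucleotides. E2f1, E2f2 and E2f3 are best known as activators, and E2f7 and E2f8 as repressors of the same targets.

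The sequence that ties many of these genes to E2F lies beside their start sites, and it is shown here for the members that differed between the genotypes. RefSeq promoter windows of GRCm38.p6, from 250 bases before to 50 bases after a gene's start, were matched by symbol for 40 of the 47 genes, 39 of them with a probe set. The words TTTCCCGC, TTTCGCGC, TTTGCCGC and TTTGGCGC were searched on both strands as E2F words. Overlapping words can share their central bases, as they do in Mcm5 and Mcm6. Of the 39 members, 16 (41.0%) held at least 1 E2F word, against 2.60% of the 27025 genes with a window, 3.81% of the genes on the arrays with a window, and 2.26% of all 32851 windows. The stretches of the 7 members with higher expression in null cells without GH and with an E2F word are printed 5′ to 3′ on the gene's strand, with the words in capitals on either strand.
Cdt1 (chr8:122568033-122568064, plus strand): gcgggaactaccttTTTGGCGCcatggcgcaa
Mcm3 (chr1:20820263-20820307, minus strand): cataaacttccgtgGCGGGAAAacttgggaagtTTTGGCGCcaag
Pola1 (chrX:93632272-93632307, minus strand): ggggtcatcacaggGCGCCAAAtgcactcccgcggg
Pold1 (chr7:44548766-44548790, minus strand): cggcgtatcttgtgGCGGGAAAagc
Rfc3 (chr5:151651187-151651232, minus strand): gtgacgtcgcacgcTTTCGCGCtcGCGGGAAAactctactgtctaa
Lig1 (chr7:13278838-13278873, plus strand): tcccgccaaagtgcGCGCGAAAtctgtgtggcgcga
Uhrf1 (chr17:56304114-56304149, plus strand): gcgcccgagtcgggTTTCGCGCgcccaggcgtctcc
Among the members lower in null cells, 2 carried an E2F word.
Cdc6 (chr11:98907999-98908034, plus strand): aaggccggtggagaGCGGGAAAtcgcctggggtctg
E2f3 (chr13:29986053-29986088, minus strand): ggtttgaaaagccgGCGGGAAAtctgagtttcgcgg
Mcm5 and Mcm6, which were not called, held overlapping words.
Mcm5 (chr8:75109342-75109381, plus strand): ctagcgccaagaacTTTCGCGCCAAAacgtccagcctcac
Mcm6 (chr1:128359790-128359829, minus strand): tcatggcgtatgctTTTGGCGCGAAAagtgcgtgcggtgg

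E2F words occurred in members of every call. They were found in 7 of 18 members higher in null cells without GH (38.9%), in 2 of 6 lower members (33.3%) and in 7 of 15 members that were not called (46.7%). The members with the largest differences in each direction, Rfc4 and Rrm2, held none of these words in their windows, which says nothing about binding of a factor there. Their whole windows are printed, with a CCAAT box and a cell-cycle homology region word (CHR, TTTGAA or TTTAAA on either strand) in capitals where present.
Rfc4 (chr16:23127681-23127980, minus strand): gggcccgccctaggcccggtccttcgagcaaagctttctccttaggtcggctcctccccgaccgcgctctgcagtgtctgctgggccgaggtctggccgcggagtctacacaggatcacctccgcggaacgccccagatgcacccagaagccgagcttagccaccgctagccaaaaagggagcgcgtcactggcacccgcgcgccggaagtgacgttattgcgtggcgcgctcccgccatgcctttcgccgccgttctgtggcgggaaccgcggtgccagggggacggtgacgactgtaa
Rrm2 (chr12:24708004-24708303, plus strand): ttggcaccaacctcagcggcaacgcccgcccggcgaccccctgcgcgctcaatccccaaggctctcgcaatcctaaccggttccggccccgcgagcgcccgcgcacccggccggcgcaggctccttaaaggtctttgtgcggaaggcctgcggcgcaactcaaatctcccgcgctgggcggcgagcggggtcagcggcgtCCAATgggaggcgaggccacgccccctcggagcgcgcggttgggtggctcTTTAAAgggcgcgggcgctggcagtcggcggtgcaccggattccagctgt
The CCAAT box starts 50 bases before the Rrm2 start, and the CHR word lies at its first base. CCAAT, searched on both strands, was found in 25 of the 39 members (64.1%), and in 41.1% of all genes with a window. CHR words were found in 11 members (28.2%), near the 30.6% of all genes. A list of genes of mitosis showed the other arrangement, with an E2F word in 1 of 27 (3.70%) and a CHR word in 22 of 27 (81.5%).

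**Figure D1:**
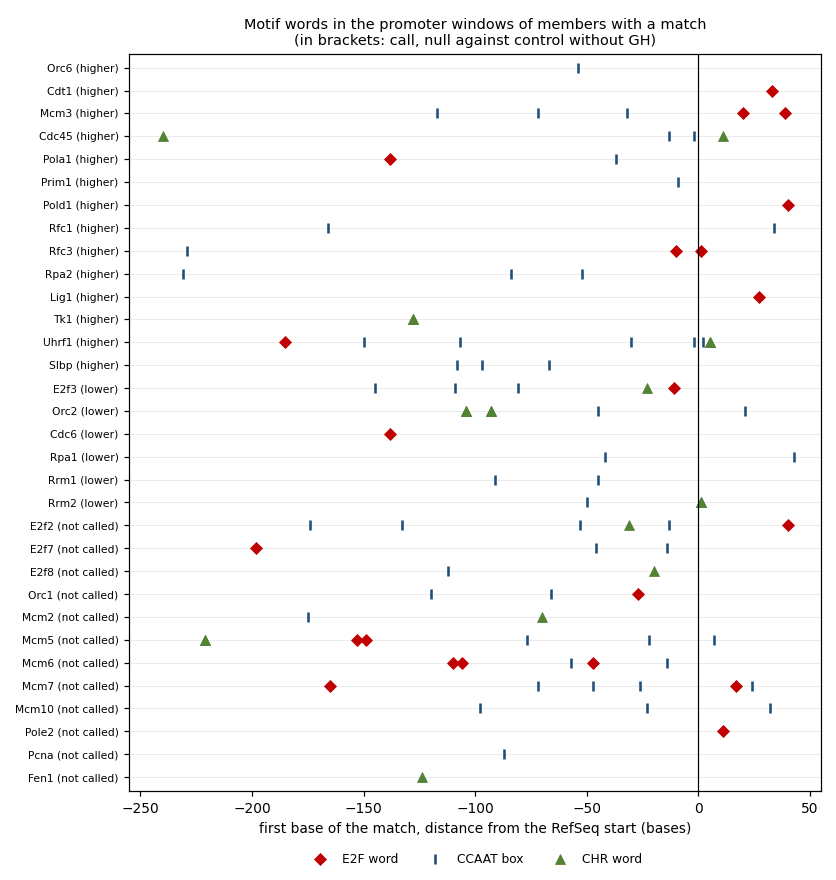
Position of E2F words, CCAAT boxes and CHR words in the promoter windows of the 32 measured members with any match (x axis: first base of the match, in bases from the RefSeq start; y axis: gene, with its call in null against control cells without GH; the windows of a gene with several starts share its line). E2F words, as red diamonds, appear among higher, lower and uncalled members.

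Comparing null with control cells asked how these genes differ in cells without Stat5a and Stat5b, first without GH. More members were higher than lower in null cells: 23 of 46 were higher, 6 were lower and 17 did not pass the test (limma, Benjamini-Hochberg adjusted p below 0.05 over all genes). Of all 18193 genes, 24.8% were called higher and 22.7% lower, so the genotypes differed widely. The median log2 difference of the members was 0.25, beside 0.03 over all genes. With GH, 20 were higher, 7 were lower and 19 did not pass, at a median of 0.20 beside -0.02, where 22.2% of all genes were called higher and 23.1% lower. In these 2 comparisons 16 members were higher in both, 5 were lower in both and none was called in opposite directions. No such count over all genes is set beside these, so they are not read as particular to the members. The 2 comparisons share no array, but they share a spread estimate and set the same genotypes against each other. A call in both is therefore not an independent repeat of the genotype difference. A further 8 were called only without GH, 6 only with GH, and 11 in neither state.

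Most differences were modest. Tested against a minimum change of 1.5-fold, only Orc6, Prim1, Rfc4, Dut and Slbp were higher without GH, and only Rrm2 was lower. Of all genes, 6.80% and 7.51% passed that stricter test in the higher and the lower direction. The same 5 members passed it with GH, together with Rrm1 and Rrm2 on the lower side, beside 6.06% and 7.26% of all genes. Leaving out each of the 8 arrays in turn, 17 of the 23 higher calls and all 6 lower calls without GH were made every time. With GH it was 15 of 20 higher and 3 of 7 lower calls, and the count of lower calls fell to 3 without WT+GH replicate 3. These are bulk samples, so a different share of cells in S phase and a different amount of RNA per cell cannot be told apart, in either direction.

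**Figure D2:**
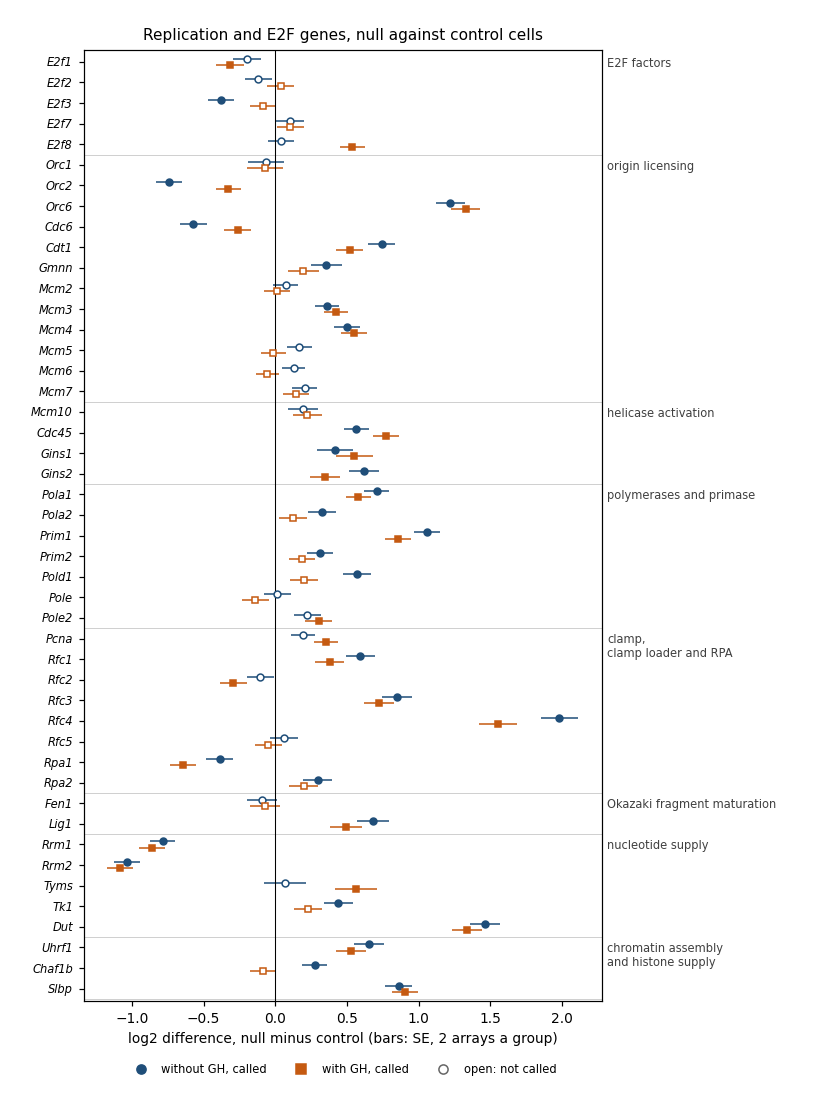
Log2 difference of null minus control cells for the 46 measured members, grouped by role (circles: without GH; squares: with GH; bars: SE, 2 arrays a group; filled: called, open: not called). Rfc4 lies farthest to the right at 1.98 without GH, and Rrm2 farthest to the left at -1.08 with GH. E2f2 and Tyms lie below the first quartile in every group, so the size of their differences is not read.

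Several facts of the arrays stand beside these counts. In null cells the level of Stat5a was below the first quartile over all genes, a limit under which sizes are not given here, against 7.15 to 7.83 on the control arrays, and Stat5b was lower by -0.69 ± 0.09 without GH and -0.93 ± 0.09 with it (log2, SE; adjusted p = 3.33e-05 and 2.71e-06). Cdkn1a, which encodes the cyclin-dependent kinase inhibitor p21, was 18.9-fold lower in null cells without GH and 18.6-fold lower with GH. It was the largest difference among 7 inhibitors of these kinases, of which 3 were higher and 3 lower without GH, with Cdkn1b (p27) 4.25-fold and Cdkn2c (p18) 3.26-fold higher. With GH, 2 of the 7 were higher and 4 lower. Against a minimum change of 1.5-fold, 2 were higher and 3 lower without GH, and 2 higher and 2 lower with it. All 10 markers of macrophages and leukocytes were lower in null cells in both states: their summed linear level was 24617 to 28309 on control arrays and 2116 to 2605 on null arrays, and Ptprc, Itgam and Aif1 lay below the first quartile in both null groups. The 12 fibroblast markers summed to 169715 to 178148 in control and 188896 to 201542 in null cells, with 4 higher, 2 lower and 6 uncalled in each state. Lum, Pdgfra and Dcn were far higher in null cells without GH (4.32, 3.80 and 3.57 on the log2 scale), Col3a1 was higher by 0.32, Fn1 and Fap were lower (-0.97 and -0.85), and Col1a1 and Vim were not called (-0.08 and -0.07). The 3′ minus 5′ difference of the Gapdh control probe sets was -0.17 to -0.12 on every array, and that of beta-actin 0.04 to 0.10 in control and 0.09 to 0.12 in null cells. The part of the kinase inhibitors, of the leukocyte and fibroblast markers and of RNA quality in the members' differences was not tested.

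The E2F factors themselves changed little. Of 5, only E2f3 was called without GH with its brightest probe set, at a lower level in null cells. E2f3 stood at 9.96 and 10.01 on the control arrays and at 9.54 and 9.68 on the null arrays (log2 RMA values), 1.30-fold lower (-0.38 ± 0.09, adjusted p = 0.00413; -0.23 with the mean of its probe sets). With GH it stood at 9.96 and 9.92 against 9.91 and 9.79, so the groups nearly met, and the difference of -0.09 ± 0.09 did not pass (adjusted p = 0.493). E2f1, the founding member of the family, differed by -0.20 ± 0.10 without GH (adjusted p = 0.116) and was 1.24-fold lower with GH (-0.31 ± 0.10, adjusted p = 0.018). The call on E2f1 was lost without WT+GH replicate 3 (adjusted p = 0.165) or KO+GH replicate 2 (0.135). A dimmer E2f1 probe set was called lower without GH (-0.38, limma, adjusted p = 0.0044 over all probe sets) and with GH (-0.32, 0.0125). The dimmest differed by -0.11 and -0.03 and was not called. With the mean of its probe sets, E2f1 was called lower without GH. E2f7 differed by 0.10 in each state and was not called, and E2f2 lay below the first quartile in every group, so no size is given for it. E2f8, a repressor, differed by 0.04 ± 0.09 without GH (adjusted p = 0.752) and was 1.45-fold higher in null cells with GH (0.54 ± 0.09, adjusted p = 0.000244), as described under GH.

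Origin licensing genes were split, with 5 higher, 2 lower and 5 uncalled of 12 without GH, and 4 higher and 2 lower with GH. All genes were split too, with 24.8% called higher and 22.7% lower without GH, and 22.2% and 23.1% with GH. These shares stand beside the counts of every role group, so a split is not read as particular to a group. Orc6, a subunit of the origin recognition complex, had the largest difference of the group. Its values were 9.58 and 9.85 on the WT- arrays, 9.56 and 9.58 on WT+GH, 10.96 and 10.91 on KO-, and 10.90 and 10.90 on KO+GH. Every null array was above every control array, by 2.33-fold without GH (1.22 ± 0.10, adjusted p = 6.25e-07) and 2.51-fold with it (1.33 ± 0.10, adjusted p = 3.09e-07). Orc2, another subunit of the complex, went the other way. It read 9.18 and 9.10 on WT-, 8.96 and 8.98 on WT+GH, 8.34 and 8.46 on KO-, and 8.68 and 8.61 on KO+GH. Orc2 was 1.67-fold lower without GH (-0.74 ± 0.09, adjusted p = 1.78e-05) and 1.25-fold lower with GH (-0.33 ± 0.09, adjusted p = 0.009), a call lost without WT+GH replicate 3 (adjusted p = 0.0566) or KO+GH replicate 3 (0.0596). Orc1, the largest subunit, was not called in either state (-0.06 and -0.07), while its other, dimmer probe set differed by -0.61 and -0.60 and was called, so the call and the size for Orc1 depend on the probe set.

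The loading factors of the helicase were also split. Cdt1, which brings the Mcm complex to origins, was at 10.42 and 10.44 on WT- and at 11.18 on both KO- arrays, 1.67-fold higher (0.74 ± 0.09, adjusted p = 2.92e-05). With GH it was 10.52 and 10.41 against 10.88 and 11.08, 1.43-fold higher (0.52 ± 0.09, adjusted p = 0.00056). Cdc6, its partner in loading, was at 7.12 and 7.23 on WT- against 6.55 and 6.66 on KO-, 1.49-fold lower (-0.57 ± 0.09, adjusted p = 0.000266). With GH, Cdc6 was 1.20-fold lower (-0.26 ± 0.09, adjusted p = 0.0394). This last call was lost without WT+GH replicate 2 (adjusted p = 0.199), WT+GH replicate 3 (0.0833) or KO+GH replicate 3 (0.224). Gmnn, the inhibitor of Cdt1, was 1.28-fold higher without GH (0.36 ± 0.11, adjusted p = 0.0142), a call lost without WT- replicate 2 (adjusted p = 0.0824) or KO- replicate 3 (0.0688), and it did not pass with GH (0.20, adjusted p = 0.162).

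Of the 6 Mcm helicase subunits, 2 were higher in null cells in both states. Mcm3 was 1.28-fold higher without GH and 1.34-fold higher with it (0.36 ± 0.08 and 0.42 ± 0.08), and all 4 null arrays, at 10.43 to 10.52, were above the 4 control arrays, at 10.08 to 10.12. Mcm4 was 1.41-fold and 1.47-fold higher (0.50 ± 0.09 and 0.55 ± 0.09). With their brightest probe sets, Mcm2, Mcm5, Mcm6 and Mcm7 were not called in either state, at 0.07, 0.17, 0.13 and 0.20 without GH and 0.01, -0.01, -0.05 and 0.14 with it. Their 95% intervals without GH ran up to 0.40 for Mcm7, so differences of the size seen in Mcm3 were not excluded for it. Dimmer probe sets of Mcm7 were called higher without GH, at 0.52 (adjusted p = 0.00064 over all probe sets) and 0.29 (0.0213), and so was 1 of Mcm5 at 0.37 (0.0207). With the mean of a gene's probe sets, Mcm5 and Mcm7 were both called higher without GH.

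Helicase activation factors were higher in null cells, 3 of 4 in each state, at medians of 0.49 without GH and 0.45 with it. Cdc45, part of the active helicase, was at 8.28 and 8.23 on WT-, 8.20 and 8.07 on WT+GH, 8.84 and 8.79 on KO-, and 8.88 and 8.94 on KO+GH. The groups did not overlap, and the difference was 0.56 ± 0.09 without GH (1.48-fold, adjusted p = 0.000164) and 0.77 ± 0.09 with GH (1.71-fold, adjusted p = 1.26e-05). A second, dimmer Cdc45 probe set differed by 0.07 and 0.17 and was not called (limma, adjusted p = 0.538 and 0.133 over all probe sets). With the mean of its probe sets Cdc45 was still called in both states. Gins2 was at 10.17 and 10.33 against 10.97 and 10.78 without GH, a 1.54-fold difference (0.62 ± 0.10, adjusted p = 0.000294). With GH, Gins2 was 1.27-fold higher (0.35 ± 0.10, adjusted p = 0.0152), which was lost without WT+GH replicate 3 (adjusted p = 0.106) or KO+GH replicate 3 (0.129). Gins1, which sits with Gins2 in the GINS complex, was higher by 0.42 ± 0.13 and 0.55 ± 0.13. Its call without GH was lost without WT- replicate 2 (adjusted p = 0.104) or KO- replicate 2 (0.106), and its call with GH without KO+GH replicate 3 (0.0531). Mcm10, a factor that helps to start the helicase, did not pass (0.19 and 0.22).

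Polymerase and primase genes were higher in null cells without GH for 5 of 7, with none lower, and for 3 of 7 with GH. Prim1, the catalytic subunit of primase, led the group. It read 9.14 and 9.25 on WT-, 9.15 and 9.05 on WT+GH, 10.23 and 10.29 on KO-, and 10.00 and 9.92 on KO+GH. Null arrays were above control arrays by 2.08-fold without GH (1.06 ± 0.09, adjusted p = 8.8e-07) and 1.81-fold with GH (0.86 ± 0.09, adjusted p = 5.97e-06). Pola1, the catalytic subunit of polymerase alpha, which works with primase, was at 8.08 and 8.09 against 8.73 and 8.85 without GH (0.71 ± 0.09, adjusted p = 2.36e-05, 1.63-fold) and 1.49-fold higher with GH (0.58 ± 0.09). Both other subunits of that complex, Pola2 (0.33) and Prim2 (0.31), passed without GH but not with it (0.12 and 0.19). Pola2 was not called without WT- replicate 3 (adjusted p = 0.0634) or KO- replicate 2 (0.0651), nor Prim2 without WT- replicate 2 (0.0854) or KO- replicate 2 (0.0593).

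Pold1, the catalytic subunit of polymerase delta on the lagging strand, was at 8.87 and 8.93 on WT- against 9.38 and 9.56 on KO-, 1.48-fold higher (0.57 ± 0.10, adjusted p = 0.000322). With GH it stood at 8.88 and 9.02 against 9.12 and 9.17 and did not pass (0.20, adjusted p = 0.122). Pole, the catalytic subunit of polymerase epsilon on the leading strand, was not called (0.01 and -0.14). Its accessory subunit Pole2 did not pass without GH (0.22, adjusted p = 0.0647) and was 1.23-fold higher with GH (0.30 ± 0.09, adjusted p = 0.0165), but leaving out any of the 4 arrays with GH ended that call (adjusted p = 0.0564 to 0.0975).

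The clamp, its loader and the single-strand binding protein RPA held the largest difference of all members. Without GH, 4 of 8 were higher and 1 was lower, and with GH 4 were higher and 2 lower. Rfc4, a subunit of the clamp loader, was at 8.10 and 8.55 on WT- and at 8.42 and 8.24 on WT+GH. On the KO- arrays it was at 10.34 and 10.28, and on KO+GH at 9.94 and 9.83. All null values lay over 1 log2 unit above all control values, and the difference was 3.95-fold without GH (1.98 ± 0.13, adjusted p = 1.02e-07) and 2.94-fold with GH (1.56 ± 0.13, adjusted p = 9.45e-07). A second Rfc4 probe set gave 1.93 and 1.41. Rfc3, another loader subunit, was at 8.73 and 8.81 against 9.74 and 9.49 without GH, 1.80-fold higher (0.85 ± 0.10, adjusted p = 2.26e-05), and 1.65-fold higher with GH (0.73 ± 0.10).

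Loader subunits did not move together. Rfc1, the large subunit, was 1.51-fold higher without GH (0.59 ± 0.10, adjusted p = 0.000276) and 1.30-fold higher with it (0.38 ± 0.10), the latter lost without WT+GH replicate 3 (adjusted p = 0.0512). Rfc5 was not called (0.06 and -0.05). Rfc2 was not called without GH (-0.10) and was 1.23-fold lower with GH (-0.29 ± 0.09, adjusted p = 0.0221), a call lost without WT+GH replicate 2 (adjusted p = 0.0698), WT+GH replicate 3 (0.114) or KO+GH replicate 2 (0.185). Pcna, the sliding clamp itself, did not pass without GH (0.20 ± 0.09, adjusted p = 0.0813) and was 1.28-fold higher with GH (0.35 ± 0.09, adjusted p = 0.00419). Rpa1, the large RPA subunit, was lower in null cells: 12.45 and 12.46 on WT-, 12.45 and 12.38 on WT+GH, 11.97 and 12.17 on KO-, and 11.77 on both KO+GH arrays. It was 1.31-fold lower without GH (-0.39 ± 0.09, adjusted p = 0.00393) and 1.56-fold lower with GH (-0.64 ± 0.09, adjusted p = 9.11e-05). Rpa2, its partner, was higher by 0.30 ± 0.10 without GH (adjusted p = 0.0291), not called without WT- replicate 2 (adjusted p = 0.194) or KO- replicate 2 (0.191), and did not pass with GH (0.20).

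Okazaki fragment genes were represented by Fen1, the flap nuclease, and Lig1, the ligase that seals the fragments. Lig1 stood at 10.29 and 10.10 against 10.79 and 10.97 without GH, 1.60-fold higher in null cells (0.68 ± 0.11, adjusted p = 0.000206). With GH it stood at 10.16 and 10.22 against 10.56 and 10.80, 1.41-fold higher (0.49 ± 0.11, adjusted p = 0.00246). Fen1 was not called (-0.09 and -0.07).

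Nucleotide supply genes held the largest differences in the lower direction beside a large one in the higher direction. Ribonucleotide reductase makes deoxynucleotides, and both of its S phase subunits were lower in null cells. Rrm2, the small subunit, was at 11.85 and 11.90 on WT-, 11.82 and 11.77 on WT+GH, 10.79 and 10.89 on KO-, and 10.76 and 10.65 on KO+GH. Control and null arrays were far apart, by 2.05-fold without GH (-1.03 ± 0.09, adjusted p = 1.04e-06) and 2.12-fold with GH (-1.08 ± 0.09, adjusted p = 7.27e-07). The other Rrm2 probe sets were also called lower, at -0.97 and -1.19 with GH. Rrm1, the large subunit, was at 11.55 to 11.62 on the 4 control arrays and 10.68 to 10.88 on the 4 null arrays, 1.72-fold lower without GH (-0.79 ± 0.09, adjusted p = 9.9e-06) and 1.81-fold lower with GH (-0.86 ± 0.09, adjusted p = 4.91e-06).

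Dut, the enzyme that breaks down dUTP and so keeps uracil out of DNA, was higher in null cells. Its values were 10.50 and 10.72 on WT-, 10.65 and 10.54 on WT+GH, 12.13 and 12.02 on KO-, and no less than 11.87 on KO+GH. The difference was 2.76-fold without GH (1.46 ± 0.10, adjusted p = 1.76e-07) and 2.52-fold with GH (1.34 ± 0.10, adjusted p = 4.14e-07), and a second probe set gave 1.13 and 1.20. Tk1, the salvage kinase for thymidine, was 1.36-fold higher without GH (0.44 ± 0.10, adjusted p = 0.00252) and did not pass with GH (0.23, adjusted p = 0.0814). Tyms, which makes thymidylate, lay below the first quartile in every group. It was called higher in null cells with GH, with no size given, and lost that call without WT+GH replicate 3 (adjusted p = 0.0911) or KO+GH replicate 2 (0.0711).

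Chromatin assembly and histone supply genes were higher without GH in 3 of 3 measured, and in 2 of 3 with GH. Slbp, which binds histone mRNA, was at 10.51 and 10.64 against 11.44 and 11.43 without GH, and at 10.52 and 10.53 against 11.36 and 11.49 with GH. It was 1.81-fold and 1.87-fold higher (0.86 ± 0.09, adjusted p = 6.13e-06, and 0.91 ± 0.09, adjusted p = 4.24e-06). With the mean of its probe sets Slbp was still called, at 0.31 and 0.46. Uhrf1, which guides maintenance of DNA methylation, was 1.57-fold higher without GH (0.65 ± 0.10, adjusted p = 0.000186) and 1.44-fold higher with it (0.53 ± 0.10, adjusted p = 0.000981), with control arrays at 8.84 to 9.09 and null arrays at 9.47 to 9.71. Chaf1b, a subunit of the chromatin assembly factor, was 1.21-fold higher without GH (0.28 ± 0.09, adjusted p = 0.0193) and not called with GH (-0.09). The call on Chaf1b was lost without WT- replicate 2 (adjusted p = 0.0728) or KO- replicate 2 (0.121).

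**Figure D3:**
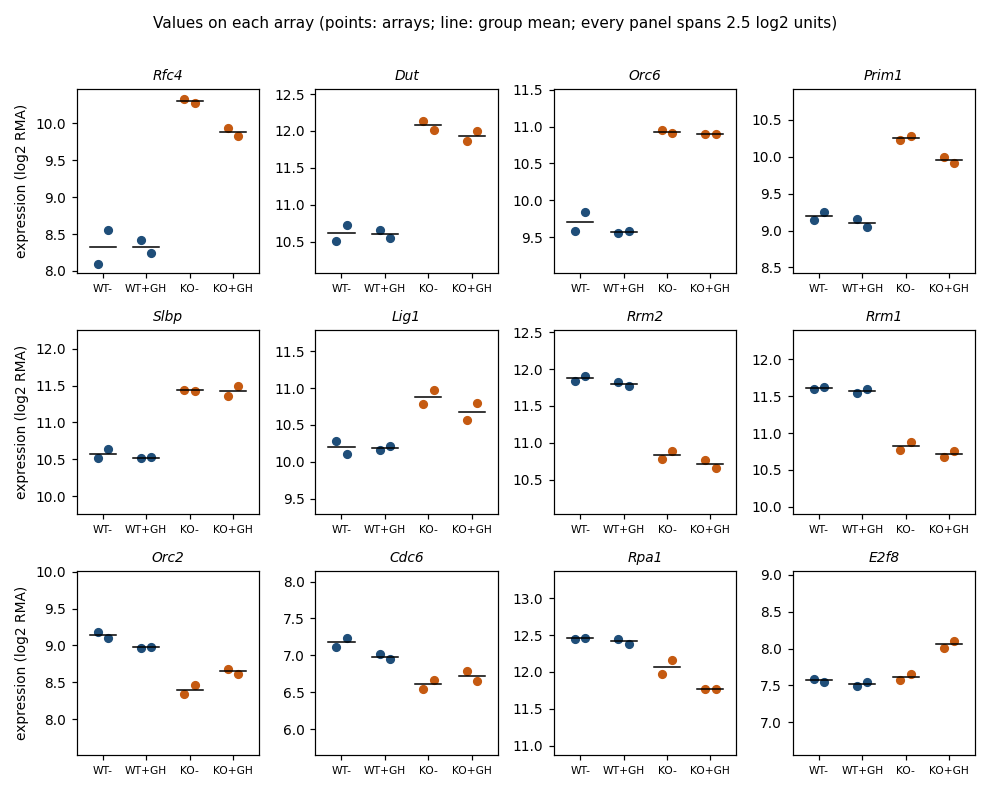
Log2 RMA values of 12 members on each array (points; line: mean of the 2 arrays; every panel spans 2.5 log2 units around its own centre). Blue control and orange null points are apart for the first 11 genes, while E2f8 stands apart only on the KO+GH arrays.

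Called members mostly gave the same direction with their other probe sets at or above the first quartile. The 46 members have 103 probe sets, and 30 members have another one at or above the first quartile. Tested alone, 44.0% of all 34945 one-gene probe sets were called without GH and 42.1% with GH. Without GH, 21 of the 30 genes were called, all with the same sign in every such probe set, and for 13 another probe set was called too. With GH, 18 of 19 called genes had 1 sign throughout and 17 had another probe set called the same way. None was called in opposite directions by its probe sets. Of the members not called, 4 of 9 without GH (E2f1, Orc1, Mcm5 and Mcm7) and 2 of 11 with GH (Orc1 and Prim2) had another probe set that was called.

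Adding GH for 2 hours asked whether the hormone moves these genes. In control cells it moved none past the threshold: 0 of 46 were called higher or lower by limma, where 1.72% of all genes were called higher and 0.896% lower. At an unadjusted p below 0.05 there was 1 member higher (Pole) and 1 lower (Pole2), beside 5.08% and 5.18% of all genes. The largest difference was that of Pole2 at -0.29, with an adjusted p of 0.18. By value 33 of 46 were lower with GH, at a median of -0.05 beside -0.02 over all genes. The other 13 members were higher by value, beside 7954 of all 18193 genes. The 95% intervals ran from -0.58 to 0.43 at the widest, so a change beyond these log2 sizes lay outside every member's interval. Cish, a feedback gene of STAT5 signalling, was higher by 1.95 ± 0.10 with GH on the same control arrays (adjusted p = 2.26e-07), and it differed by 0.06 in null cells.

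In null cells GH gave 3 calls. E2f8 was at 7.57 and 7.65 without GH and at 8.01 and 8.11 with it, higher by 0.45 ± 0.09 (adjusted p = 0.00624). The 2 groups did not overlap, and in control cells E2f8 was at 7.59 and 7.54 without and 7.49 and 7.55 with GH (-0.05 ± 0.09, adjusted p = 0.954). A second, dimmer E2f8 probe set differed by 0.28 in null cells and was not called (limma, adjusted p = 0.104 over all probe sets). The call on E2f8 was lost without KO- replicate 2 (adjusted p = 0.0543) or KO+GH replicate 3 (0.0604). Pold1 was lower with GH, at 9.38 and 9.56 without it and 9.12 and 9.17 with it (-0.33 ± 0.10, adjusted p = 0.0496), and so was Chaf1b, at 8.71 and 8.59 against 8.32 and 8.32 (-0.33 ± 0.09, adjusted p = 0.0317). Both lower calls rested on single arrays: the count of 2 ranged from 0 to 4 when single arrays were left out, and was 0 without any of WT+GH replicate 2, WT+GH replicate 3, KO- replicate 2, KO+GH replicate 2 or KO+GH replicate 3, 1 without KO- replicate 3, and 4 without WT- replicate 2 or 3. Of all genes, 5.36% were called higher and 6.35% lower with GH in null cells. At an unadjusted p below 0.05, 3 members were higher and 14 lower, beside 9.55% and 17.1% of all genes. By value 12 of 46 members were higher with GH, beside 6083 of all 18193 genes. The medians were -0.10 for the members and -0.07 for all genes. Rfc4 differed by -0.42 ± 0.13 and did not pass (adjusted p = 0.0614). Tested over all probe sets by limma, a dimmer Pold1 probe set was called lower (-0.39, adjusted p = 0.0225), and its brightest was not (0.0643). The dimmer probe set of Chaf1b was not called (-0.21, adjusted p = 0.219). A dimmer Slbp probe set was called higher (0.42, adjusted p = 0.0215), while its brightest differed by -0.01.

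**Figure D4:**
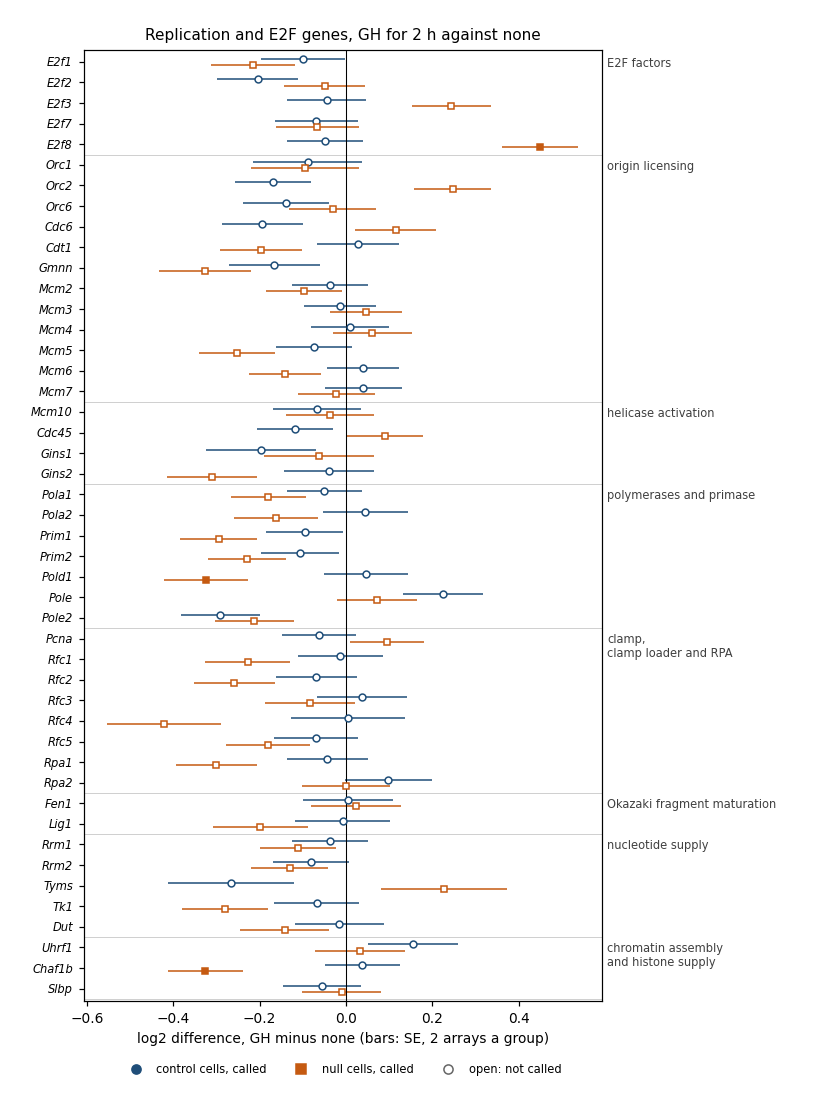
Log2 difference of GH minus none for the 46 measured members by role (circles: control cells; squares: null cells; bars: SE, 2 arrays a group; filled: called, open: not called). No control circle is filled, and E2f8, Pold1 and Chaf1b are the 3 filled squares.

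The interaction tests whether GH acted differently in null and control cells. Only E2f8 was called, with a difference between the 2 responses of 0.50 ± 0.12 (adjusted p = 0.0396), where 2.83% of all genes were called higher and 2.33% lower. Leaving out any of the 8 arrays ended this call on E2f8 (adjusted p = 0.0609 to 0.151), and without WT+GH replicate 2 Tyms was called instead. Orc2, at 0.42 ± 0.12, did not pass (adjusted p = 0.0882), nor did Rfc4 at -0.42 ± 0.19 (adjusted p = 0.262). None was called lower by limma, and 3 members (Pold1, Rfc4 and Chaf1b) were lower at an unadjusted p below 0.05, beside 9.98% of all genes. Higher at that unadjusted level were 5 members (E2f3, E2f8, Orc2, Cdc6 and Tyms), beside 7.40% of all genes. Without WT- replicate 3, 1 member, Rfc4, was called lower.

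Other genes of the pathway, listed by name in the same way, were also counted. Of 73 measured, 32 were higher and 13 lower in null cells without GH at a median of 0.20, and 28 were higher and 15 lower with GH at a median of 0.11. Among all genes, 24.8% were called higher and 22.7% lower without GH, and 22.2% and 23.1% with GH. The 73 genes comprised 33 further genes of the replication machinery (16 higher, 6 lower without GH), 26 other S phase and E2F target genes (12 higher, 4 lower) and 14 partners of E2F and of the retinoblastoma family (4 higher, 3 lower). Among those with both group means above the first quartile, the largest called differences upward were Rbl2, the retinoblastoma-like protein p130, at 1.66 ± 0.12 (3.16-fold, adjusted p = 2.12e-07), Gins3, a further GINS subunit, at 1.59 ± 0.11 (adjusted p = 1.88e-07), and Dscc1, of an alternative clamp loader, at 1.33 ± 0.13 (2.52-fold, adjusted p = 2.36e-06). Esco2 was called higher too, with its control mean below that limit and so with no size. Downward they were Ccne2 at -1.25 ± 0.13 (2.38-fold, adjusted p = 6.85e-06) and Ccne1 at -0.76 ± 0.26 (1.69-fold, adjusted p = 0.0273), the E cyclins that drive entry into S phase, and Dna2, a nuclease of Okazaki fragments, at -1.02 ± 0.12 (2.02-fold, adjusted p = 1.55e-05). With GH in null cells, 2 of the 73 were called higher and 7 lower, beside 5.36% and 6.35% of all genes. In control cells none of the 73 was called, beside 1.72% and 0.896% of all genes.

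Genes of mitosis, which act after replication, were set beside the members. Of 33 measured, 26 were higher and 1 lower without GH at a median of 0.71, and 22 were higher and 1 lower with GH at a median of 0.59, beside the members' medians of 0.25 and 0.20. Of all genes, 24.8% were called higher and 22.7% lower without GH, and 22.2% and 23.1% with GH. With GH in null cells, 11 of the 33 mitotic genes and 2 of the 46 members were called lower, beside 6.35% of all genes. Whether the lists differ was not tested.

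**Figure D5:**
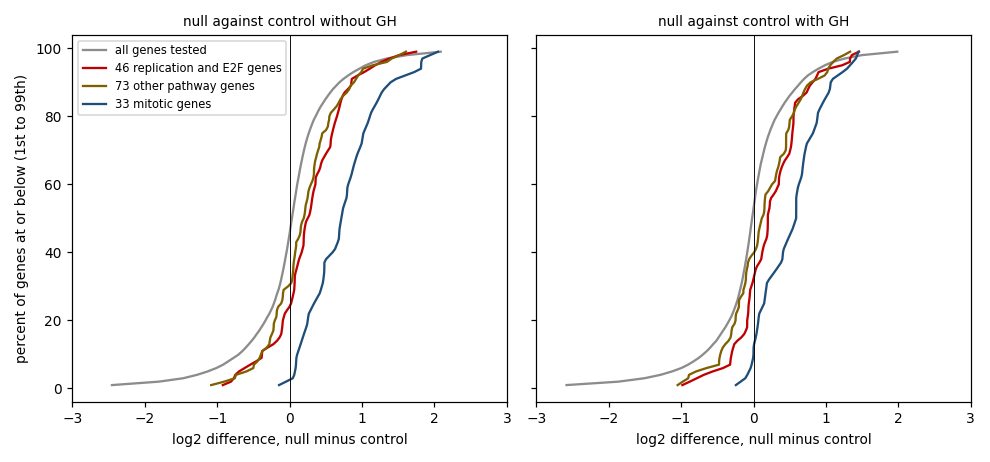
Cumulative percent of genes (y axis) at or below a log2 difference of null minus control (x axis), without GH on the left and with GH on the right, for all 18193 genes, the 46 members, 73 other pathway genes and 33 mitotic genes. The members' medians of 0.25 and 0.20 lie between those of all genes (0.03 and -0.02) and of the mitotic genes (0.71 and 0.59).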

How the data were processed

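RNA of MEFs was measured on 8 Affymetrix whole-genome mouse arrays. The deposited values are log2 expression values made with Partek 6.10.0511 and RMA, per the submitters' processing notes, which corrects background, equalises the arrays and summarises probes. Its settings are not stated there. Of 45101 probe sets, 64 controls were left out, and 34945 had 1 gene in the array annotation, 932 several and 9160 none. Symbols were updated through Entrez identifiers for 34741, and 204 kept their name. The probe set with the highest mean over all arrays stood for each of 18193 genes. Groups and replicate numbers come from the array titles; for 1 KO- array the source label carries another number.

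All arrays were fitted in limma 3.58.1 (R 4.3.3) with 1 mean per group (4 residual and 7.82 prior degrees of freedom; median residual SD 0.097), and each comparison was adjusted over all genes. The fit was checked on simulated data. Errors are limma's SE with 2 arrays a group, whose number limits the precision. Exact permutation of 2 against 2 arrays cannot give a p below 0.333, so none was used. No size is given where a group mean lies below 6.10, the first quartile, since the values carry no detection call. Full statistics are given for the largest called difference of each role group in either direction, the 6 largest of each comparison, every member called for GH or the interaction, and the 3 largest of the other pathway genes in each direction. Other members named, and the mitotic list, are accounted for more briefly. The members and lists were chosen with earlier results of these data known. Alternatives were the mean of a gene's probe sets, each probe set alone, dim genes left out, arrays centred on medians, a replicate block, only the arrays compared, another variance moderation, a 1.5-fold minimum and leaving out each array.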

Additional observations from a re-analysis of the deposited data

Results flagged for a closer look

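E2f8 was called for a GH response that differed between the genotypes, but the call did not hold in several alternatives. The response in null minus control cells was 0.50 on the log2 scale (limma interaction, adjusted p = 0.0396). Both null arrays with GH lay above both without it, and the control arrays overlapped. The call was lost on leaving out any single array and with a replicate block. Tested over all probe sets, this probe set did not pass (limma, adjusted p = 0.0524), and a second, dimmer one gave 0.20 (adjusted p = 0.535).

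Of the 73 other pathway genes, 2 also passed the interaction test, both downward. That is 2.74%, near the 2.33% of all genes called lower there. Orc5, a subunit of the origin recognition complex, gave -0.48 (adjusted p = 0.0461), with a GH difference of -0.55 ± 0.09 in null cells and -0.07 in control cells. Timeless, of the fork protection complex, gave -0.50 (adjusted p = 0.0331), with -0.39 ± 0.08 in null and 0.10 in control cells.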

How the results depend on the processing

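None of the 21 results with full statistics changed sign in any alternative. Of their 338 alternative values, 300 kept their side of the threshold and 38 lost it. Requiring a 1.5-fold change left 5 higher and 1 lower without GH and 5 higher and 2 lower with GH, and gave 0 for the interaction and, in either direction, for GH in null cells. Leaving out 1 array gave 3 to 7 lower members with GH, 0 to 1 higher and 0 to 4 lower with GH in null cells, and 0 to 1 in each direction of the interaction. The 2 lower calls for GH in null cells became 1 with each probe set tested alone, 6 with dim genes left out, 1 with arrays centred on their medians and 7 with trended and robust moderation. The interaction call became 0 with each probe set alone, and with the mean of a gene's probe sets the 1 gene called was Orc2 in place of E2f8. Single calls in the interaction left E2f8 for Tyms without WT+GH replicate 2, and without WT- replicate 3 the call was Rfc4, lower. Members outside those 21 results could change sign: Orc1 ran from -0.34 to 0.14 and Fen1 from -0.21 to 0.03 without GH. For Orc1 these ends came from the mean of its probe sets and from the fit without WT- replicate 2. For Fen1 they came from the fits without WT- replicate 3 and without WT- replicate 2. With the replicate number as a block (replicate block), members numbered 23 higher and 6 lower without GH, and 20 and 6 with GH. GH in null cells then gave 1 higher and 0 lower, and the interaction gave 0. Deviations of same-numbered arrays from their group means correlated at -0.28 to 0.13 between groups. With 2 arrays a group, each pair of groups gives a single correlation, so this cannot exclude that the numbers pair the arrays. A crossed pairing, added after seeing the data, gave 7 lower for GH in null cells.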
